A study of Mus musculus with 36 samples.

Results

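The transcripts of 6 NMDA receptor subunits, Grin1, Grin2a, Grin2b, Grin2c, Grin2d and Grin3a, were followed in mouse hippocampus. They were found in the RNA count table by matching Ensembl gene identifiers to these symbols, which gave 6 rows of 37991 genes: ENSMUSG00000026959, ENSMUSG00000059003, ENSMUSG00000030209, ENSMUSG00000020734, ENSMUSG00000002771 and ENSMUSG00000039579, in the order named. All 6 passed the filter on low counts that left 14457 genes for testing. The study used female mice, 3 months old, of 2 genotypes: double-transgenic CK-p25 animals, labelled CKp25, and control littermates, labelled CK. Hippocampus was taken 2 or 6 weeks after p25 was switched on, and each of the 4 groups had 3 RNA libraries. CK-p25 mice are a model of neurodegeneration related to Alzheimer's disease. As general knowledge of this line, p25 is a truncated, overactive form of the Cdk5 activator p35, and its expression is driven in forebrain excitatory neurons through the CaMKII alpha promoter. The labels do not say which transgene the CK littermates carried, or whether the 3 libraries of a group came from separate animals, so the p-values measure the spread between libraries.

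NMDA receptors are glutamate-gated channels that pass calcium only when glutamate and a co-agonist, glycine or D-serine, are bound while the membrane is depolarised. Each receptor holds the obligate GluN1 subunit (Grin1), which binds the co-agonist, together with GluN2 subunits (Grin2a to Grin2d), which bind glutamate and set the kinetics and anchoring of the channel. GluN3 subunits (Grin3a, Grin3b) bind glycine and reduce calcium entry. In the forebrain, Grin2b dominates early in life and Grin2a rises as synapses mature; Grin2c is best known from cerebellar granule cells and is also expressed in forebrain astrocytes, and Grin2d is known from interneurons.

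Grin1 and Grin2c moved in opposite directions at 6 weeks, and the sequences immediately before their start sites are shown because these contrasting members each had an entry in the promoter table (RefSeq, GRCm38.p6). Both lie on the minus strand, Grin1 at chr2:25319188-25319437 and Grin2c at chr11:115267244-115267493, and each run holds the 250 bases before the annotated start, 5′ to 3′. Capitals mark matches on either strand to any of 4 short motifs. GGGCGG is the GC box, bound by Sp1-like factors. CACGTG is an E-box, bound by basic helix-loop-helix factors. TATAAA is the TATA box that positions transcription starts. TGACG is the core of the cAMP response element, bound by CREB, and is seen as its reverse complement in the Grin1 run.
Grin1: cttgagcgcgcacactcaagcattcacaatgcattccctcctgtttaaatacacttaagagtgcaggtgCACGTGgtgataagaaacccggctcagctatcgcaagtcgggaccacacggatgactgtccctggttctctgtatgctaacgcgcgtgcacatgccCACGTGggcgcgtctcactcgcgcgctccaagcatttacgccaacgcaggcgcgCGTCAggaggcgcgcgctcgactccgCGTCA
Grin2c: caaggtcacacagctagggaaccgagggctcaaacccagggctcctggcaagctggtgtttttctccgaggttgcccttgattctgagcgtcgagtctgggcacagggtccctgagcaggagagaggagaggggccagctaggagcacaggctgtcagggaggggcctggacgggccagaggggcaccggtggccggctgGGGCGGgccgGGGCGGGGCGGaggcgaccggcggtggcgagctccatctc
The Grin1 window held 2 E-boxes and 2 cAMP response element cores, with 27 CpG dinucleotides and a GC content of 58.8%. The Grin2c window held 3 GC boxes, 2 of them overlapping, with 15 CpG dinucleotides and a GC content of 68.8%. Neither held a TATA box. Among 32851 promoters of the same length, 6.02% held this E-box, 17.8% the cAMP response element core, 32.7% the GC box and 12.4% the TATA box, and the medians were 6 CpG dinucleotides and 52.4% GC. The Grin2d window, at chr7:45866682-45866931 on the minus strand, held none of these motifs, with 9 CpG dinucleotides and 54.4% GC.

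Between 5029996 and 6450140 reads were assigned to genes per library. Libraries of the same group differed by more than counting noise (chi-square per gene 1.46 to 9.07), so none was a copy of another. At 2 weeks, libraries CK_2wk_4520 and CKp25_2wk_4518 stood apart: their multiply aligned reads were 7.15% and 6.81%, below the 12.2% to 14.3% of the other 4, and their reads outside annotated genes were the most frequent (44.9% and 46.9%). At 6 weeks the same shares separated the genotypes. CK libraries had 6.86% to 9.52% multiply aligned reads, below the CKp25 range of 11.5% to 13.9%, and CK had 41.6% to 46.1% outside genes where CKp25 had 38.1% to 40.2%. A fit with the multiply aligned share as a covariate kept every call of a member at 6 weeks. The share did not overlap between the genotypes at that time, so this fit cannot tell the share from genotype. No conclusion on the part of these shares is drawn from it, and no other test of them was made. Expression is given in CPM, the count divided by the TMM-scaled library size. Gene-specific lengths were not used, so levels are compared between groups for 1 gene and not between genes.

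The cell-type markers moved with genotype as well. Beside this, 19.6% of all genes were called at 2 weeks (7.99% lower and 11.6% higher) and 33.3% at 6 weeks (15.2% lower and 18.1% higher). Of 8 pan-neuronal markers, 6 fell at 2 weeks and 8 at 6 weeks (median log2 fold change -0.38 and -0.54), and their summed level fell from 5736 to 5911 CPM in CK to 4448 to 4829 CPM in CKp25 at 2 weeks, and from 5552 to 6050 CPM to 3708 to 4596 CPM at 6 weeks. Of 6 excitatory neuron markers, 3 fell at 2 weeks and 5 at 6 weeks (medians -0.34 and -0.63), while among 8 inhibitory interneuron markers none was called at 2 weeks and 2 were higher at 6 weeks (Pvalb and Npy). All 6 microglia markers rose at both times (medians 1.74 and 2.15). Choroid plexus markers ranged between 15.5 and 2422 CPM over the 12 libraries, with none called at either time. Cerebellar granule cell markers summed to at most 3.2 CPM, and among the thalamic markers Prkcd was higher in CKp25 at both times (log2 fold changes 1.04 and 0.74). The thalamic markers Tcf7l2 (0.42 and 0.45) and Lef1 (0.09 and 0.47) were called at neither time, and Tnnt1 did not pass the filter. In whole hippocampus, fewer neurons and less RNA per neuron cannot be told apart. Some subunit values are given relative to neuronal markers, and an alternative fit took the choroid plexus genes as a covariate. Under that fit Grin2b at 2 weeks was called as well (log2 fold change -0.30, adjusted p = 0.0477, edgeR). The part of these markers in the results for the subunits was not tested otherwise. The mouse gene Cdk5r1, which encodes p35, was lower in CKp25 (log2 fold changes -0.34 ± 0.07 and -0.51 ± 0.08, SE); it does not check the transgene, because reads of an introduced p25 sequence need not be counted there.

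The genotype comparison asked which subunit transcripts differed after p25 induction. In CKp25 hippocampus, Grin1 and Grin2a fell at 2 weeks. At 6 weeks Grin1, Grin2a and Grin2b were lower, to between 0.558 and 0.684 of the CK level, while Grin2c was 1.48 times as high. Grin2d and Grin3a passed the test at neither time. In edgeR's quasi-likelihood test with Benjamini-Hochberg adjustment over all genes, called at an adjusted p under 0.05, this gave 2 of 6 members called at 2 weeks, both lower, against 19.6% of all genes called (7.99% lower and 11.6% higher). At 6 weeks 4 of 6 were called, 3 lower and 1 higher, against 33.3% of all genes (15.2% lower and 18.1% higher). The median log2 fold change of the 6 members was -0.24 at 2 weeks and -0.19 at 6 weeks, beside -0.01 and 0.00 over all genes tested. Scaling by library totals alone moved the median of all genes at 2 weeks to 0.10 and the lower share of calls from 40.8% to 11.9%; the same 2 members were called.

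**Figure D1:**
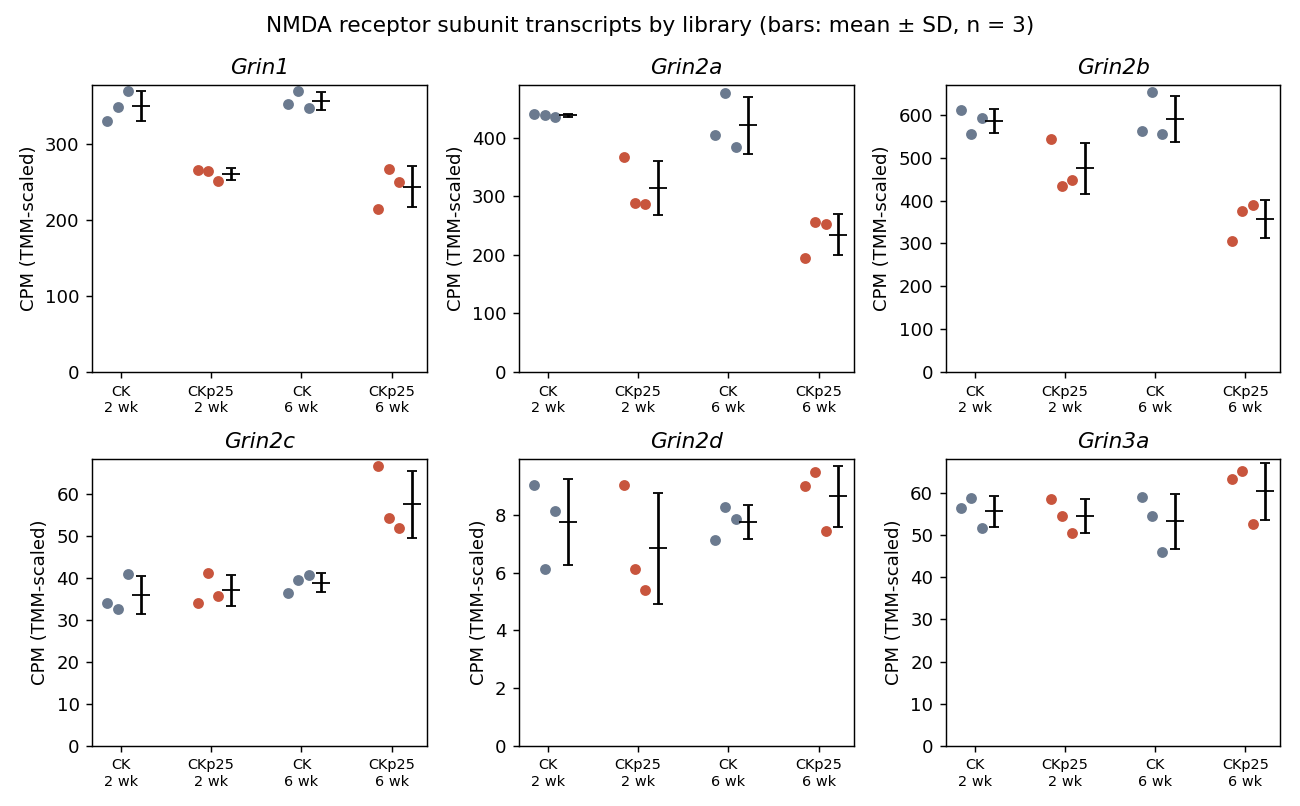
Level of each subunit in CPM (linear axis from 0, scaled per panel) for the 3 libraries of each group, with the mean and SD beside the points; grey is CK and red is CKp25. Grin1, Grin2a and Grin2b lie lower in CKp25 at both times without overlap, Grin2c is higher in CKp25 at 6 weeks without overlap, and the groups overlap for Grin2d and Grin3a.

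Grin1, the subunit every NMDA receptor needs, stood at 331, 349 and 371 CPM in the CK libraries at 2 weeks and at 266, 265 and 251 CPM in CKp25. At 6 weeks the CK libraries held 354, 371 and 348 CPM and the CKp25 libraries 215, 268 and 250.2 CPM. The groups did not overlap at either time, and all 6 CKp25 libraries lay below all 6 CK libraries. Here and below, lack of overlap only describes the libraries. The share of all genes without overlap was not computed, and 3 against 3 libraries cannot give an exact permutation p below 0.1. The log2 fold change was -0.42 ± 0.08 (SE) at 2 weeks (adjusted p = 0.00113, edgeR) and -0.55 ± 0.08 at 6 weeks (adjusted p = 7.17e-05). The difference between the 2 effects, -0.12 ± 0.11, did not pass the test (adjusted p = 0.688, edgeR). Summed over 3 libraries, these levels rested on 4115 to 5562 counts per group. An antisense transcript that overlaps the gene, Grin1os, had 3 counts in all 12 libraries. The labels do not say whether counting used strand, so this count does not show how many antisense reads were counted under Grin1.

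Grin2a, the GluN2 subunit of mature synapses, was even across the CK libraries at 2 weeks, with 440.4, 438 and 436 CPM, and lower in CKp25, with 367, 288 and 286 CPM. The high CKp25 value came from library CKp25_2wk_4518, which stood apart in its alignment shares. At 6 weeks the CK libraries held 404, 476 and 383 CPM and the CKp25 libraries 194, 256 and 253 CPM. No CKp25 library reached the lowest CK library at either time. The log2 fold change was -0.48 ± 0.12 at 2 weeks (adjusted p = 0.00661, edgeR) and -0.84 ± 0.12 at 6 weeks (adjusted p = 3.50e-05), the largest of the 6 members in size. The difference between times was -0.36 ± 0.16 and did not pass the test (adjusted p = 0.321, edgeR).

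Grin2b, the GluN2 subunit that predominates in the young forebrain and binds CaMKII, gave 611, 555 and 592 CPM in CK at 2 weeks and 544, 434 and 448 CPM in CKp25. These groups did not overlap, and again CKp25_2wk_4518 was the highest CKp25 library. The log2 fold change of -0.30 ± 0.11 narrowly missed the threshold (adjusted p = 0.0532, edgeR). It was past the threshold under 10 of the 23 alternative settings, among them 3 that left out 1 library: -0.41 (adjusted p = 0.00906) without CKp25_2wk_4518, -0.31 (0.0431) without CK_6wk_3938 and -0.30 (0.025) without CKp25_6wk_3937; the adjusted p ranged from 0.00577 to 0.282 over all 23. With sets of libraries of close numbers as a term, a fit added after the data were seen, it was -0.31 (adjusted p = 0.0255). At 6 weeks the separation was wide, with 562, 652 and 556 CPM in CK and 305, 375 and 390 CPM in CKp25. The log2 fold change was then -0.72 ± 0.11 (adjusted p = 6.09e-05, edgeR). The difference between times was -0.42 ± 0.15 (adjusted p = 0.197, edgeR).

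Grin2c, the subunit of receptors with weak magnesium block, was called in the other direction, at 6 weeks. Its levels were 34.2, 32.7 and 41 CPM in CK at 2 weeks and 34.1, 41.4 and 35.8 CPM in CKp25, so the groups overlapped. At 6 weeks CK stayed at 36.4, 39.6 and 40.7 CPM and CKp25 reached 66.8, 54.3 and 52 CPM. Every CKp25 library at 6 weeks lay above all 9 others. The log2 fold change was 0.04 ± 0.12 at 2 weeks (adjusted p = 0.858, edgeR) and 0.56 ± 0.11 at 6 weeks (adjusted p = 0.00105), on 608 and 957 counts over the CK and CKp25 libraries. The difference between times, 0.52 ± 0.16, did not pass the test (adjusted p = 0.147, edgeR). Beside this, astrocyte markers summed to 5108 to 5552 CPM in CK and 7068 to 7444 CPM in CKp25 at 2 weeks, with 4 of 6 higher, and to 5256 to 5824 CPM and 9570 to 12010 CPM at 6 weeks, with 6 of 6 higher (median log2 fold change 0.77). Oligodendrocyte markers were called in 0 of 7 cases at 2 weeks and 6 of 7 at 6 weeks (median 0.44, all 6 higher), with summed levels of 2626 to 3358 CPM in CK and 3844 to 4703 CPM in CKp25 at 6 weeks. Endothelial markers were called in 0 of 4 cases at 2 weeks and 4 of 4 at 6 weeks, all higher (median 0.75). Over all genes tested, 11.6% were called higher at 2 weeks and 18.1% at 6 weeks. The part of these cells in the Grin2c result was not tested.

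Grin2d, known from interneurons, was the most thinly counted member, with 121 to 145 counts per group of 3 libraries. CK held 9.05, 6.14 and 8.13 CPM at 2 weeks and 7.12, 8.29 and 7.86 CPM at 6 weeks, and CKp25 held 9.04, 6.12 and 5.39 CPM and 9, 9.5 and 7.46 CPM. The groups overlapped at both times, and CK_2wk_4520 and CKp25_2wk_4518 were the highest libraries of the 2-week groups. The log2 fold changes were -0.18 ± 0.22 (adjusted p = 0.634, edgeR) and 0.16 ± 0.22 (adjusted p = 0.624); the standard error of 0.22 compares with 0.08 for Grin1. With 1 library left out, the 2-week value ranged from -0.44 (without CKp25_2wk_4518) to -0.02 (without CKp25_2wk_4894), and the 6-week value was 0.53 with the multiply aligned share as a covariate (adjusted p = 0.103).

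Grin3a, the glycine-binding subunit that dampens calcium entry, held 56.5, 58.7 and 51.6 CPM in CK at 2 weeks against 58.5, 54.5 and 50.5 CPM in CKp25. At 6 weeks CK held 59, 54.6 and 46.1 CPM and CKp25 63.2, 65.2 and 52.7 CPM. The groups overlapped at both times. The log2 fold change was -0.03 ± 0.10 at 2 weeks (adjusted p = 0.888, edgeR) and 0.19 ± 0.10 at 6 weeks (adjusted p = 0.191). With 1 library left out, the 6-week value ranged from 0.09 (without CK_6wk_4009, adjusted p = 0.589) to 0.27 (without CKp25_6wk_4008, adjusted p = 0.0709), and it was 0.12 without CKp25_6wk_3940. The gene span of Ppp3r2 lies within that of Grin3a, and Ppp3r2 had 102 counts in all, against 824 to 1011 per group for Grin3a. The other GluN3 gene, Grin3b, was at most 3 counts in any library and was not tested.

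**Figure D2:**
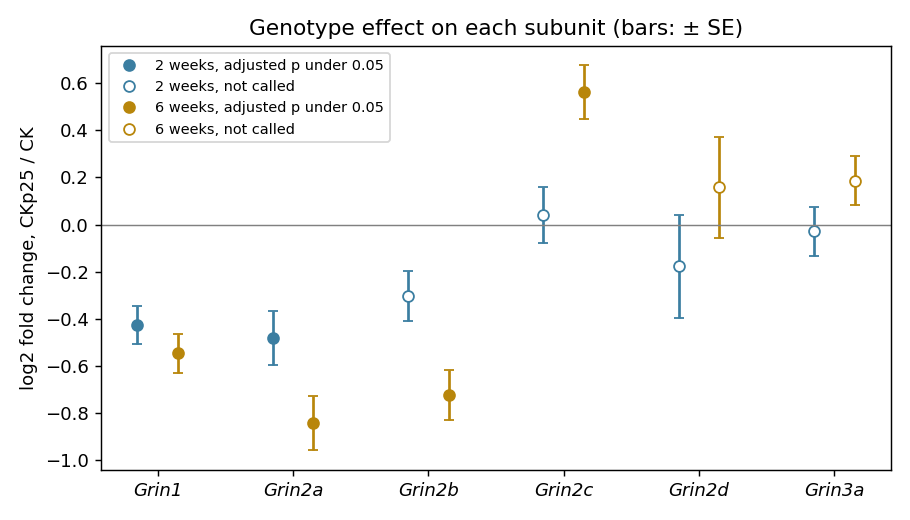
Log2 fold change of CKp25 against CK for each subunit with its SE (edgeR), blue at 2 weeks and gold at 6 weeks, filled where the adjusted p is under 0.05. Grin1, Grin2a and Grin2b lie below 0 at both times, and Grin2c alone is called above 0, at 6 weeks.

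Time was compared within each genotype. In CK, none of the 6 members differed between 6 and 2 weeks, with log2 fold changes from -0.07 (Grin3a) to 0.12 (Grin2c) and every adjusted p at 1 in edgeR. Over all genes 0 were called there, 0% of those tested, by edgeR as by DESeq2 and limma-voom, while 560 had an unadjusted p under 0.05. In CKp25, 3 of 6 members were called against 11.7% of all genes. Grin2a was lower at 6 than at 2 weeks by 0.42 ± 0.12 on the log2 scale (adjusted p = 0.0259, edgeR), and Grin2b by 0.41 ± 0.11 (adjusted p = 0.0173). Grin2c was higher by 0.64 ± 0.11 (adjusted p = 0.00158). The 3 libraries at 6 weeks did not overlap the 3 at 2 weeks for these genes. Each set of libraries of close numbers holds 1 time only, so in either genotype time cannot be told apart from set. The calls for Grin2a and Grin2b rested on single libraries: without CKp25_2wk_4518 the log2 fold changes were -0.31 and -0.32 (adjusted p = 0.0926 and 0.0571), and without CKp25_6wk_3937 they were -0.30 and -0.31 (adjusted p = 0.136 and 0.0919). The test of the difference itself, whether the genotype effect changed from 2 to 6 weeks, called none of the 6 members against 0.553% of all genes (80 genes; 219 by DESeq2 and 61 by limma-voom), with 3 members (Grin2a, Grin2b and Grin2c) at an unadjusted p under 0.05.

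Ordered by mean level, Grin1 ran from CKp25 at 6 weeks (244 ± 26.6 CPM, SD, n = 3) and CKp25 at 2 weeks (261 ± 8.27) to CK at 2 weeks (350.2 ± 19.6) and CK at 6 weeks (357 ± 11.9), and the neighbouring groups of 1 genotype did not pass the test against each other. Grin2a went from 234.5 ± 35.3 and 314 ± 45.8 CPM in CKp25 at 6 and 2 weeks to 421 ± 48.5 and 438 ± 2.38 CPM in CK at 6 and 2 weeks, and Grin2b from 357 ± 45.2 and 475 ± 59.9 CPM to 586 ± 28.6 and 590.1 ± 53.9 CPM in CK at 2 and 6 weeks. For both, the CK groups did not pass the test against each other, and the CKp25 groups did. Grin2c gave 36 ± 4.44, 37.1 ± 3.79 and 38.9 ± 2.23 CPM in CK at 2 weeks, CKp25 at 2 weeks and CK at 6 weeks, none of which passed the tests made among them, and 57.7 ± 7.96 CPM in CKp25 at 6 weeks. Grin2d (6.85 to 8.65 CPM) and Grin3a (53.2 to 60.4 CPM) had group means within their spread.

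Ratios of counts inside a library need no scaling between libraries, and 3 were tested with exact permutation of the genotype labels within each time (two-sided, 400 arrangements, smallest possible p 0.005; within a single time 20 arrangements, smallest p 0.1). Their level depends on gene length, so only changes are read. The Grin2a to Grin2b ratio asked whether the main GluN2 subunits changed alike. It was 0.720, 0.789 and 0.737 in CK and 0.674, 0.665 and 0.640 in CKp25 at 2 weeks, and 0.719, 0.729 and 0.689 in CK and 0.635, 0.683 and 0.649 in CKp25 at 6 weeks. All CKp25 libraries lay below all CK libraries. The ratio in CKp25 was 0.881 of that in CK at 2 weeks and 0.920 at 6 weeks, a mean log2 difference of -0.15 over both times (exact p = 0.005, 0.0075 after adjustment over the 3 ratios).

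The Grin1 to summed Grin2 ratio, obligate against glutamate-binding subunits, was 0.303, 0.338 and 0.344 in CK and 0.279, 0.344 and 0.324 in CKp25 at 2 weeks. At 6 weeks it was 0.351, 0.315 and 0.352 in CK and 0.375, 0.385 and 0.356 in CKp25, which lay above CK without overlap. The log2 differences were -0.06 and 0.13, and over both times 0.04 (exact p = 0.565, adjusted 0.565; within 6 weeks exact p = 0.1, the smallest possible). The Grin3a to Grin1 ratio was 0.171, 0.168 and 0.140 in CK and 0.22, 0.206 and 0.201 in CKp25 at 2 weeks. At 6 weeks it was 0.167, 0.148 and 0.133 in CK and 0.294, 0.244 and 0.211 in CKp25, again with no overlap. The ratio was 1.31 times as high in CKp25 at 2 weeks and 1.67 times at 6 weeks (mean log2 difference 0.56, exact p = 0.005, adjusted 0.0075). In CPM, Grin1 was called lower at both times and Grin3a at neither. The ratio therefore largely restates the lower Grin1 counts and is not a separate result for Grin3a.

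**Figure D3:**
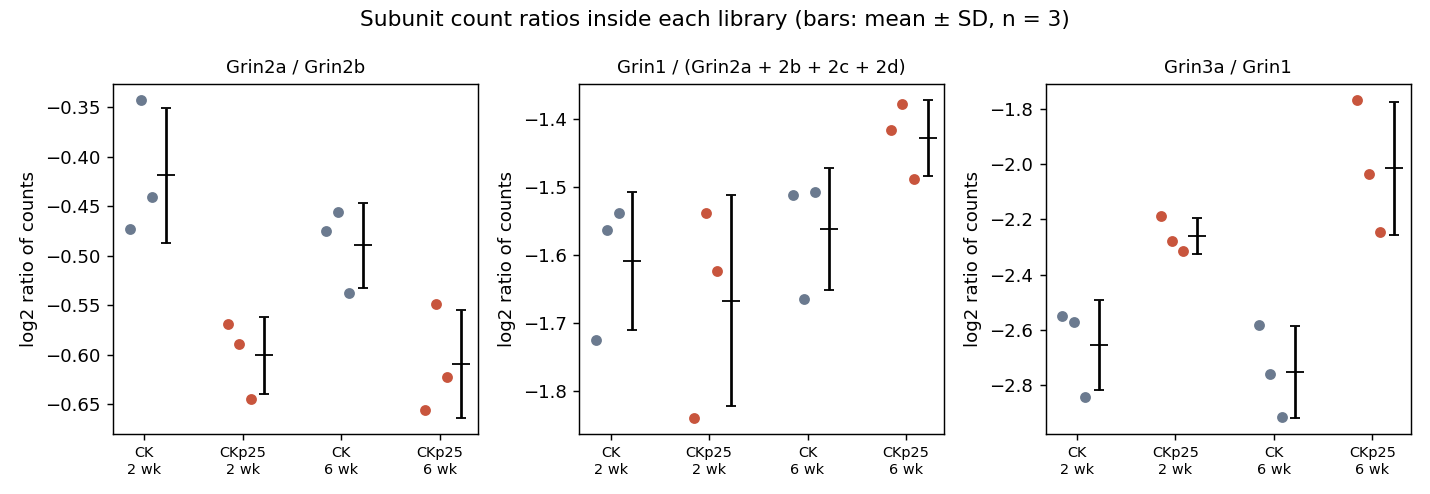
Log2 ratio of counts in each library, with the group mean and SD (n = 3); grey is CK and red is CKp25. Grin2a to Grin2b is lower and Grin3a to Grin1 is higher in every CKp25 library than in every CK library of both times, while the groups overlap at 2 weeks for Grin1 to the summed Grin2 counts.

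Within the reads of the 4 Grin2 genes, Grin2a took 40.2% to 42.4% in CK and 36.9% to 38.4% in CKp25 at 2 weeks, and 38.8% to 40.5% and 33.7% to 36.9% at 6 weeks. Grin2b took 53.8% to 55.8% and 56.4% to 57.7% at 2 weeks, and 55.5% to 56.3% and 53.1% to 55.5% at 6 weeks. Grin2c took 3.12% to 3.81% in CK and 3.58% to 5.37% in CKp25 at 2 weeks, and 3.37% to 4.12% against 7.40% to 11.6% at 6 weeks. Grin2d took 0.595% to 0.948% in all groups but CKp25 at 6 weeks, where it took 1.06% to 1.56%. These shares are of counts and were not corrected for length.

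Each member was also measured against the 8 pan-neuronal markers of the same library (the log2 count minus the mean log2 count of the markers), which asks whether it changed more or less than neuronal transcripts in general. Grin1 gave the smallest differences: CKp25 minus CK was -0.04 at 2 weeks and -0.03 at 6 weeks (over both times exact p = 0.225, adjusted over the 6 members 0.27), with CK between -0.54 and -0.43 and CKp25 between -0.59 and -0.43. For Grin2b the differences were 0.08 and -0.21 (exact p = 0.49, adjusted 0.49). Grin2a gave -0.10 and -0.33 (exact p = 0.045, adjusted 0.0675); at 6 weeks its CKp25 libraries (-0.65 to -0.42) did not overlap CK (-0.31 to -0.09), whereas at 2 weeks CKp25_2wk_4518 (-0.05) lay above every CK library. Without that library the Grin2a difference over both times was -0.28 (exact permutation, adjusted p = 0.01). Among the 12 settings with 1 library left out, this was the only 1 past the threshold. Without both that library and CK_2wk_4520 the difference was -0.25 (exact permutation, adjusted p = 0.0333). Over 17 alternatives, Grin2a was past the threshold in 3, and its adjusted p ranged from 0.01 to 0.1275.

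Grin2c and Grin3a rose relative to the neuronal markers. Grin2c lay between -3.95 and -3.53 in CK and between -3.48 and -2.15 in CKp25, and within each time the groups did not overlap. It was 1.35 times as high in CKp25 at 2 weeks and 2.11 times at 6 weeks (exact p = 0.005, adjusted 0.015). Grin3a lay between -3.35 and -3.06 in CK and between -2.90 and -2.23 in CKp25, 1.28 and 1.63 times as high (exact p = 0.005, adjusted 0.015). The CPM of Grin3a was not called at either time, nor was that of Grin2c at 2 weeks (log2 fold change 0.04), while the markers fell. Grin2d gave differences of 0.19 and 0.67 (exact p = 0.04, adjusted 0.0675), with no overlap at 6 weeks. Excitatory neuron markers in place of the pan-neuronal ones brought Grin2a (-0.20) and Grin2d (0.45) past the threshold as well (adjusted p = 0.045 for both). So did permuting labels only within sets of libraries of close numbers (adjusted p = 0.0417 for Grin2a, Grin2c, Grin2d and Grin3a alike). Apart from that permutation, Grin2d was past the threshold in 2 of 17 alternatives (exact permutation, adjusted p from 0.04 to 0.15).

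**Figure D4:**
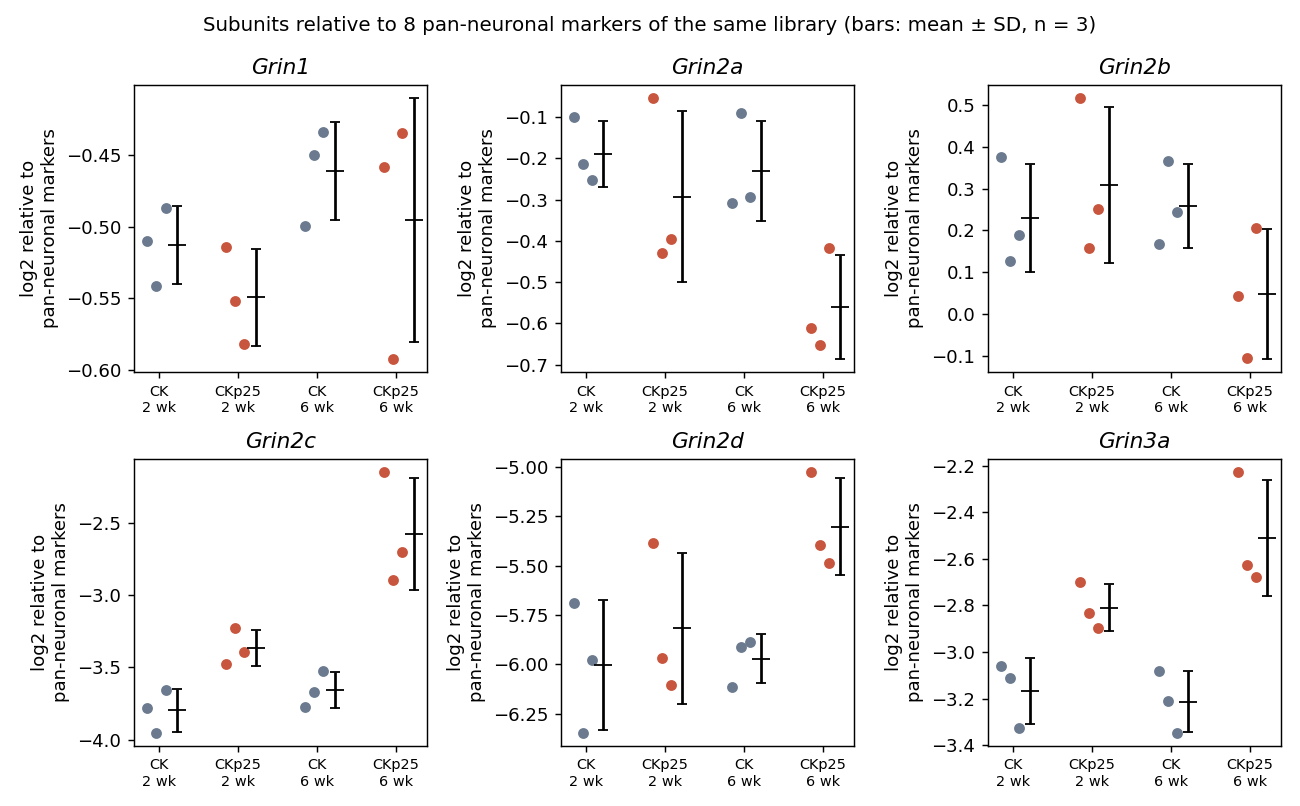
Log2 level of each subunit relative to the mean of 8 pan-neuronal markers in the same library, with the group mean and SD (n = 3) and an axis of its own per panel; grey is CK and red is CKp25. Grin1 overlaps between genotypes at both times, and Grin2c and Grin3a are higher in CKp25 at both.

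Genes that act with the receptor were taken as 5 lists. Over all genes tested, 7.99% were called lower at 2 weeks and 15.2% at 6 weeks. The pan-neuronal markers had median log2 fold changes of -0.38 and -0.54. Whether the listed genes changed apart from neuronal transcripts in general was not tested. Of 15 anchoring and trafficking proteins, which hold receptors in the postsynaptic density or carry them there, 6 were lower and none higher at 2 weeks (median log2 fold change -0.20), and 11 lower and none higher at 6 weeks (-0.40). Dlg4, which encodes PSD-95, had log2 fold changes of -0.31 ± 0.08 (adjusted p = 0.0102, edgeR) and -0.50 ± 0.08 (adjusted p = 0.00015). At 2 weeks the named members of this list were Lin7b (21.9 to 13.1 CPM, log2 fold change -0.74), Lin7a (61.9 to 47.8 CPM, -0.37), both part of a complex that couples GluN2B cargo to kinesin, and Dlg2 (393 to 310.3 CPM, -0.34), which encodes PSD-93. At 6 weeks they were the actin-binding Actn2 (14.8 to 8.99 CPM, -0.71), the scaffold Shank3 (189 to 125 CPM, -0.59) and Lin7b (19.4 to 13.1 CPM, -0.55).

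The next list held 17 genes: kinases and phosphatases that act on the receptor or are anchored beside it, and the anchoring protein Akap5. Of these, 9 were lower at 2 weeks (median -0.27) and 12 at 6 weeks (-0.43), with none higher. The share of all genes called lower was 7.99% at 2 weeks and 15.2% at 6 weeks. Camk2a, whose product binds GluN2B after calcium entry, went from 1517 ± 70.9 to 1004 ± 107 CPM at 2 weeks (log2 fold change -0.60 ± 0.11, adjusted p = 0.000891, edgeR) and from 1444 ± 160 to 739 ± 112 CPM at 6 weeks (-0.97 ± 0.11, adjusted p = 5.74e-06). Camk2b, its partner in the holoenzyme, had a log2 fold change of -0.49 at 2 weeks. At 6 weeks the next in size were Ptk2b (-0.90), a kinase upstream of Src, and Ppp3ca (-0.81), a calcineurin catalytic subunit. Fyn, a kinase that phosphorylates GluN2B, was not called (-0.03 and 0.07), and Cdk5, the kinase that p25 activates, had -0.29 ± 0.10 (adjusted p = 0.0451) and -0.24 ± 0.10 (adjusted p = 0.0815). Fyn, Cdk5 and Dlg4 were singled out here for their known roles after their values had been seen.

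Of 11 genes of calcium signalling below the receptor, 7 were lower at 2 weeks (median -0.36) and 10 at 6 weeks (-0.51), with none higher. Beside this, 7.99% of all genes were lower at 2 weeks and 15.2% at 6 weeks. The calmodulin genes Calm3 (954 to 688 CPM, -0.47) and Calm2 (869 to 657 CPM, -0.40) and the synapse-to-nucleus messenger Nsmf (561 to 406 CPM, -0.47) led at 2 weeks. At 6 weeks the CREB coactivator Crtc1 (166 to 97.9 CPM, -0.75) and the nitric oxide synthase Nos1 (140.1 to 91.8 CPM, -0.60) did. Of 6 tested surface partners none was called at 2 weeks (median -0.18) and 2 fell at 6 weeks (median -0.38): Neto1 (70.4 to 48.6 CPM, -0.53), an auxiliary protein of the receptor, and Grm5 (482.5 to 347 CPM, -0.47), a metabotropic glutamate receptor.

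The co-agonist list held 10 tested genes that make, break down or move D-serine and glycine. Of these, 2 were higher and none lower at 2 weeks (median 0.24), against 11.6% of all genes higher. At 6 weeks 7 were higher and 1 lower (median 0.61), against 18.1% higher. The transporters Slc7a10 (log2 fold changes 0.25 and 0.15) and Slc6a9 (-0.17 and 0.23) were called at neither time; they were singled out after their values had been seen. At 2 weeks the serine transporter Slc1a4 rose from 53.2 ± 2.27 to 88.6 ± 11.9 CPM (log2 fold change 0.74 ± 0.10, adjusted p = 2.16e-05, edgeR) and Shmt1, which interconverts serine and glycine, from 3.8 to 7.26 CPM (0.93). At 6 weeks Phgdh, the first enzyme of serine synthesis, rose from 40.1 ± 4.39 to 76.6 ± 6.76 CPM (0.93 ± 0.12, adjusted p = 2.68e-05, edgeR), Shmt1 from 2.92 to 5.15 CPM (0.80) and Psat1, the next enzyme, from 67 to 111 CPM (0.73). The 1 gene that fell was Srr, serine racemase, which makes D-serine from L-serine (83.6 ± 5.67 to 61.1 ± 4.29 CPM, -0.45 ± 0.08, adjusted p = 0.000367). Psat1 was also the 1 gene of the 5 lists whose genotype effect differed between the times. Serine synthesis enzymes are known from astrocytes. Phgdh, Psat1 and Psph were called at 6 weeks and not at 2 weeks (edgeR, adjusted p = 0.0922, 0.184 and 0.466 at 2 weeks), while 4 of 6 astrocyte markers were higher at 2 weeks and 6 of 6 at 6 weeks; the part of astrocytes in these results was not tested.

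**Figure D5:**
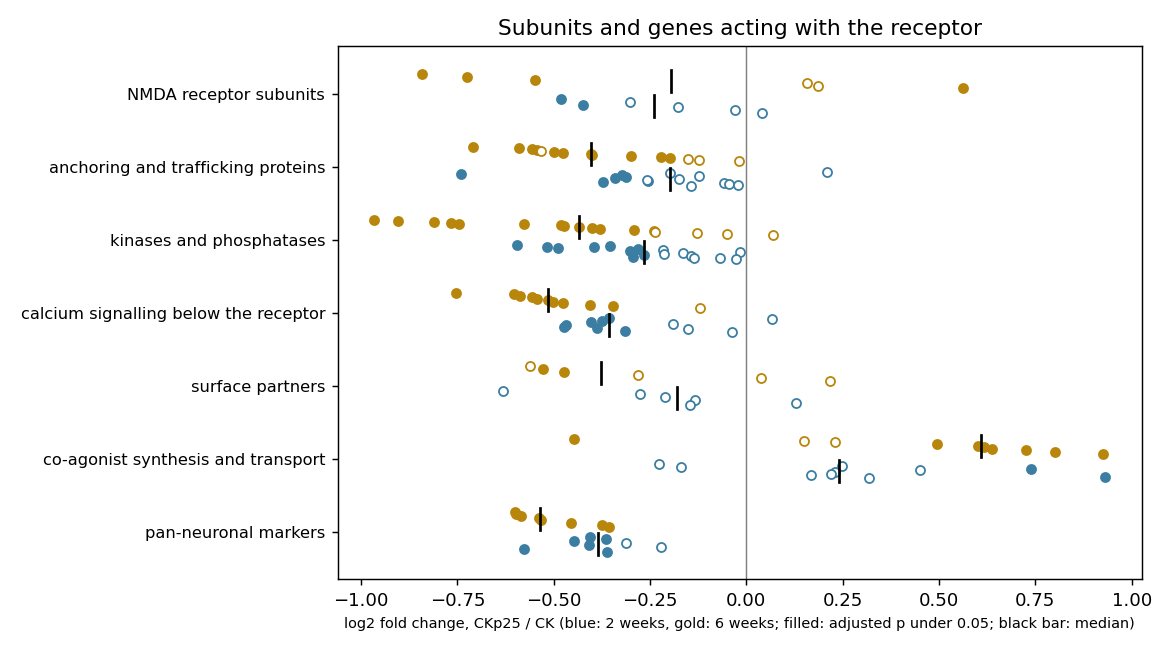
Log2 fold change of CKp25 against CK for the tested genes of each list (blue 2 weeks, gold 6 weeks, filled where the adjusted p in edgeR is under 0.05, black bar the median). Anchoring, kinase and calcium signalling genes lie mostly below 0, and most genes of co-agonist synthesis and transport lie above it.

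The genes whose log2 CPM was most like each member over the 12 libraries were taken by Pearson's r, as a description of libraries that share genotype and composition. For Grin1 these were Brinp1 (r = 0.992), Grm7 (0.989) and Lpcat4 (0.989). For Grin2a they were Dmxl2 (0.998), Dlg4 (0.995) and Atp2b1 (0.994). For Grin2b they were Gria1 (0.998), an AMPA receptor subunit, Ppfia2 (0.995) and Slit1 (0.994). Gria1 had log2 fold changes of -0.32 and -0.71 beside -0.30 and -0.72 for Grin2b. Grin2c was most like Plekhb1 (0.981), Ndrg1 (0.978) and Carhsp1 (0.978), which had log2 fold changes of 0.05, 0.09 and 0.12 at 2 weeks and 0.82, 0.62 and 0.63 at 6 weeks. The best values were 0.974 for Grin2d (Trim65, then Gm5422 and Zfp493) and 0.857 for Grin3a (Rnft1, then Aggf1 and 0610030E20Rik).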

How the data were processed

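Hippocampal RNA was prepared with a stranded, ribosomal RNA-depleted total RNA kit, per the labels' protocols. The authors deposited raw read counts per Ensembl gene for 12 libraries; HTSeq 0.6.1, Bowtie and the builds NCBIM37 and mm9 are named in the submitters' processing notes, with no role given. No label or header says whether counting used strand, so a member and an antisense partner cannot be told apart. Closing entries that name no gene, 60% to 63.6% of reads, were left out of library sizes. Symbols were found for 32919 of 37991 genes (86.6%). The 28 histone mark peak lists were not used, because no annotation of their build was at hand.

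Counts were tested with edgeR 4.0.16 (R 4.3.3): TMM factors, filterByExpr, 1 mean per group over all 12 libraries, quasi-likelihood tests, Benjamini-Hochberg adjustment over 14457 genes, called under 0.05. Ratios and levels relative to markers used the count plus 0.5 and exact permutation (scipy 1.17.1). Correlations used log2 CPM with a prior count of 2. The code was tested on simulated data. DESeq2 1.42.0, limma 3.58.1 (voom), other scalings, no filter, covariates and left-out libraries were alternatives. The members, gene lists and marker lists were chosen with earlier results of these data known. Named genes were all members, up to 3 called genes per list, direction and time with the largest fold change, and the 3 genes most correlated with each member; 2 genes that this rule names are not reported here. Promoters are from RefSeq, GRCm38.p6, matched by symbol for 3 of the 6 members.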

Additional observations from a re-analysis of the deposited data

How the results depend on the processing

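The called genotype effects of Grin1 and Grin2a at 2 weeks and of Grin1, Grin2a, Grin2b and Grin2c at 6 weeks kept their direction and stayed past the threshold under all 23 alternatives; the highest adjusted p was 0.0491 (edgeR, Grin2a at 2 weeks with 1 library left out). With reads aligned to several places as a covariate, the log2 fold changes at 6 weeks were -0.60, -0.74, -0.61 and 0.54. That share did not overlap between the genotypes at 6 weeks, so this fit cannot tell it from genotype. The 2 ratios past the threshold stayed there in 15 of 15 alternatives (Grin2a to Grin2b -0.17 to -0.13, Grin3a to Grin1 0.50 to 0.62). No paired analysis was possible because the labels give the libraries no numbers shared between groups. The numbers fall into 4 sets that each hold both genotypes (CK_2wk_4520 with CKp25_2wk_4518, CK_6wk_4009 with CKp25_6wk_4008, and the other 4 libraries of each time), and the labels do not say what the sets are. With the sets as a term, chosen after seeing the data, 3 members were called at 2 weeks, 4 at 6 weeks and 0 for the difference (305 genes in all for the difference). Permuting within sets (144 arrangements, smallest p 0.0139) left the 2 ratios past the threshold (adjusted p = 0.0208) and gave 4 members relative to neuronal markers. Members called for the difference between times were 2 (Grin2b and Grin2c) with no filter on low counts, against 0. Members called between times within CKp25 were 1 to 3 with 1 library left out, and 1 without both CK_2wk_4520 and CKp25_2wk_4518; Grin2a was also lost with only the 2 groups fitted (adjusted p = 0.0534) and with counts thinned to 50% (0.105). Members past the threshold relative to neuronal markers were 4 with excitatory neuron markers, against 2; the cause of these changes was not tested. With 1 library left out Grin2d at 6 weeks ranged from 0.0713 to 0.253. Uncalled values near 0 changed sign: Grin3a at 2 weeks was 0.085 with library totals and 0.0365 with thinned counts, and Grin1 relative to the median of the neuronal markers 0.0113. With 1 library left out, Grin2c at 2 weeks ranged from -0.043 to 0.136 and Grin3a from -0.0845 to 0.0321, and the change from 2 to 6 weeks in CK from -0.009 to 0.0701 (Grin1), -0.154 to 0.0072 (Grin2a), -0.0678 to 0.0516 (Grin2b), -0.15 to 0.122 (Grin2d) and -0.146 to 0.0314 (Grin3a). In CK that change was -0.0157 for Grin1 and 0.115 for Grin2d without both libraries named above, and -0.0722 for Grin2b with the alignment covariate. Over all genes, calls at 2 weeks were 1806 without CKp25_2wk_4894, against 2833. For the difference between times they were 219 with DESeq2, 693 with no filter, 46 thinned, 301 and 313 with the alignment and choroid plexus covariates, and 24 to 204 with 1 library left out, against 80. Within CK they were 130 with no filter and 26 without both libraries, against 0; within CKp25, 1100 thinned, 974 without CKp25_2wk_4894 and 839 without CKp25_6wk_3937, against 1685. Library totals alone moved the lower share of calls from 32.5% to 59.3% for the difference and from 47.5% to 65.7% within CKp25. Depth limits Grin2d, with 30 to 62 counts per library.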
